A study of Danio rerio with 24 samples.

Results

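Larvae kept in 10 µM sodium arsenite were compared with vehicle larvae, as the 4 libraries of each group in a series of 24. The libraries were taken by their labels, not by any measured value. Both groups were whole zebrafish larvae (Danio rerio) of the wildtype AB strain, sampled at 5 days after fertilization. The arsenite larvae entered a dish of 10 µM sodium arsenite in 0.3X Danieau's solution (DanS) at 4 hours after fertilization and stayed in it, with regular media changes, until sampling. The vehicle larvae are labelled as vehicle only, and the labels give no agent for them. The series also holds 1 µM arsenite, 30 and 300 µg/L uranyl nitrate, and the lower doses of both metals together (the mixture), with 4 libraries a group. For each library 10 larvae were pooled. The exposed groups were kept in separate dishes, so dish and exposure cannot be told apart. No label says that the pools came from separate clutches, so p-values measure the spread between these pools.

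Arsenite is trivalent inorganic arsenic, which binds the thiol groups of proteins and of glutathione. In vertebrate cells it frees the transcription factor NRF2 from its thiol sensor KEAP1, and NRF2 then drives genes for glutathione synthesis, glutathione conjugation, thioredoxin and peroxiredoxin cycling and the supply of NADPH. Arsenic conjugated to glutathione leaves liver and gut cells through ABCC transporters, and arsenite methyltransferase adds methyl groups to it. At high acute doses arsenite is also a classical inducer of heat shock proteins, heme oxygenase and metallothionein.

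Expression is given as FPKM, fragments scaled to gene length and library size, as the authors deposited it. Whole read numbers recovered from these values came to 18403389 to 21644105 per library at 10 µM arsenite and 16581486 to 22987080 in vehicle. Pairs of arsenite libraries correlated across genes at 0.982 to 0.985 on the log2(FPKM + 1) scale, pairs of vehicle libraries at 0.982 to 0.984, and pairs between the groups at 0.980 to 0.984. On the first principal component of these 8 libraries, which held 19.4% of the variance, the arsenite libraries lay at 3.09 to 22.4 and the vehicle libraries at -21.1 to -5.90. Markers of all 13 cell types and organs listed were detected, and at most 2 genes of a marker list (the lens crystallin genes crygm7 and crygs1) were at 0 in all 8 libraries. In whole larvae, fewer cells of a type and less RNA per cell cannot be told apart.

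A gene is called here where limma's test, fitted on log2(FPKM + 1) of 22682 genes over all 24 libraries, gave an adjusted p under 0.05. Fold changes are differences between group means on this log2 scale, and folds of genes with low FPKM come out too small on it. Against vehicle, 165 genes were called at 10 µM arsenite, which is 0.727% of the genes tested. Of these, 135 were higher (0.595%) and 30 lower (0.132%). The share called of each gene list below is to be read beside these shares of all genes. The 2 groups did not overlap for 163 of the 165, so lack of overlap is shared by nearly all called genes. Few changes were large: 12 called genes changed by at least 1 on the log2 scale, 70 by 0.5 to 1, and 83 by less than 0.5, of which 63 were higher and 20 lower. The median log2 fold change of all genes tested was 0.01. The fit of the 8 libraries alone called 58 genes, 53 of them among the 165. Without vehicle replicate 3 there were 102 calls, and 83 of the 165 genes were called in each of the 8 fits that omit a library (leave-one-out fits).

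**Figure D1:**
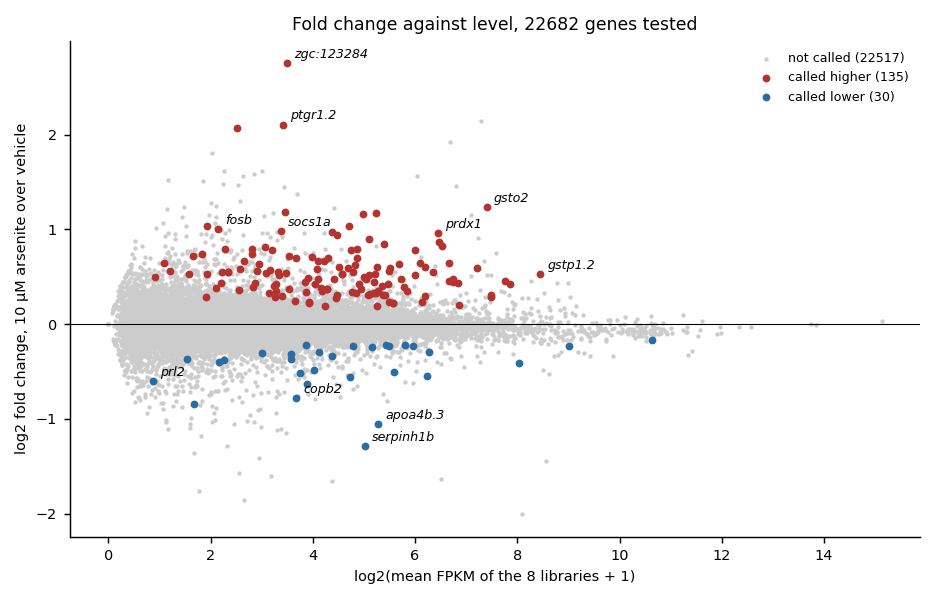
Each point is 1 of the 22682 genes tested, with its log2 mean FPKM over the 8 libraries on the x axis and its log2 fold change of 10 µM arsenite over vehicle on the y axis. The 135 genes called higher (red) include zgc:123284 and ptgr1.2 above 2, and the 30 called lower (blue) reach down to serpinh1b at -1.29.

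Members of the glutathione transferase and reductase lists, which were chosen with earlier results of these data known, held 5 of the 14 largest increases. Among the 21 glutathione S-transferase genes tested, 5 rose and none fell (23.8% called), with a list median of 0.10. The omega class gene gsto2, whose product in mammals also reduces arsenic species, had 279, 237, 242 and 187 FPKM in the arsenite libraries, against 106, 90.1, 93.3 and 107 FPKM in the vehicle libraries. Its log2 fold change was 1.24 (SE 0.0863, adjusted p 1.36e-08), and the lowest arsenite library lay well above the highest vehicle library. Groups without overlap were a condition of the rule for the largest increases. The neighbouring gene gsto1 had 27.5, 26.7, 25.4 and 25.9 FPKM at 10 µM arsenite, against 12.9, 11.5, 13.6 and 13.8 FPKM in vehicle (0.97, SE 0.0724, adjusted p 3.08e-08). Its 4 arsenite libraries were tightly grouped, at about the same fold in each. The alpha class gene gsta.1 stood at 51.5 ± 8.6 FPKM in arsenite and 22.0 ± 1.78 FPKM in vehicle (SD, n = 4 each) and rose by 1.18 (SE 0.235, adjusted p 0.0127). Without arsenite replicate 1, its highest library, the adjusted p of gsta.1 was 0.0583. The abundant pi class gene gstp1.2 had 466, 443, 364 and 368 FPKM in arsenite, against 284, 256, 298 and 294 FPKM in vehicle (0.53, SE 0.0707, adjusted p 0.000197), and the microsomal gene mgst3b 177 ± 32.7 against 116 ± 7.37 FPKM (0.60, SE 0.0821, adjusted p 0.000271). The other 16 transferases were not called, among them gstp1.1 (0.30, adjusted p 0.40). In the fit of the 8 libraries alone, gstp1.2 (adjusted p 0.0718) and mgst3b (0.101) were not called. The labels do not say how reads that match several of these similar copies, or genes overlapping on either strand, were counted, and single members are uncertain to that extent.

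The 2 largest called increases of the whole comparison were members of the reductase list, itself chosen with earlier results of these data known. The gene zgc:123284 was placed in this list although the annotation used here leaves it unnamed. It had 16.9, 21.5, 22.5 and 13.8 FPKM at 10 µM arsenite, against 2.08, 1.78, 1.80 and 1.83 FPKM in vehicle. Its mean was 9.98 times the vehicle mean, with a log2 fold change of 2.75 (SE 0.19, adjusted p 1.36e-08). The gene ptgr1.2, a prostaglandin reductase that also clears reactive aldehydes in mammals, had 16.8, 18.9, 16.1 and 13.5 FPKM in arsenite, against 3.17, 2.98, 2.41 and 3.48 FPKM in vehicle (2.11, SE 0.14, adjusted p 1.36e-08). Both genes were low in every vehicle library. That their groups did not overlap was a condition of the rule that named them. The carbonyl reductase gene cbr1l rose more modestly, at 73.8 ± 6.57 FPKM in arsenite and 51.2 ± 2.64 FPKM in vehicle (0.52, SE 0.0613, adjusted p 3.78e-05). Of the 32 reductases and aldehyde dehydrogenases tested, these 3 rose and none fell (9.38% called), and the list median was -0.04, with 19 of the 32 values below 0. The second copy of the prostaglandin reductase, ptgr1.1, was not called (0.29, adjusted p 0.462). Outside the list, and chosen after their values were seen, the dihydrodiol dehydrogenase gene dhdh.1 rose by 0.59 (SE 0.0627, adjusted p 8.52e-06), while its neighbour dhdh.2 fell by 0.24 (SE 0.0529, adjusted p 0.0318). The groups did not overlap for either copy, at 54.1 ± 3.76 against 35.5 ± 1.03 FPKM for dhdh.1 and 31.5 ± 0.772 against 37.4 ± 1.01 FPKM for dhdh.2 (arsenite first). The call of dhdh.2 was lost in 7 of 8 leave-one-out fits, up to an adjusted p of 0.106 on omitting vehicle replicate 4. It was also lost in the fit of the 8 libraries alone (adjusted p 0.0718).

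**Figure D2:**
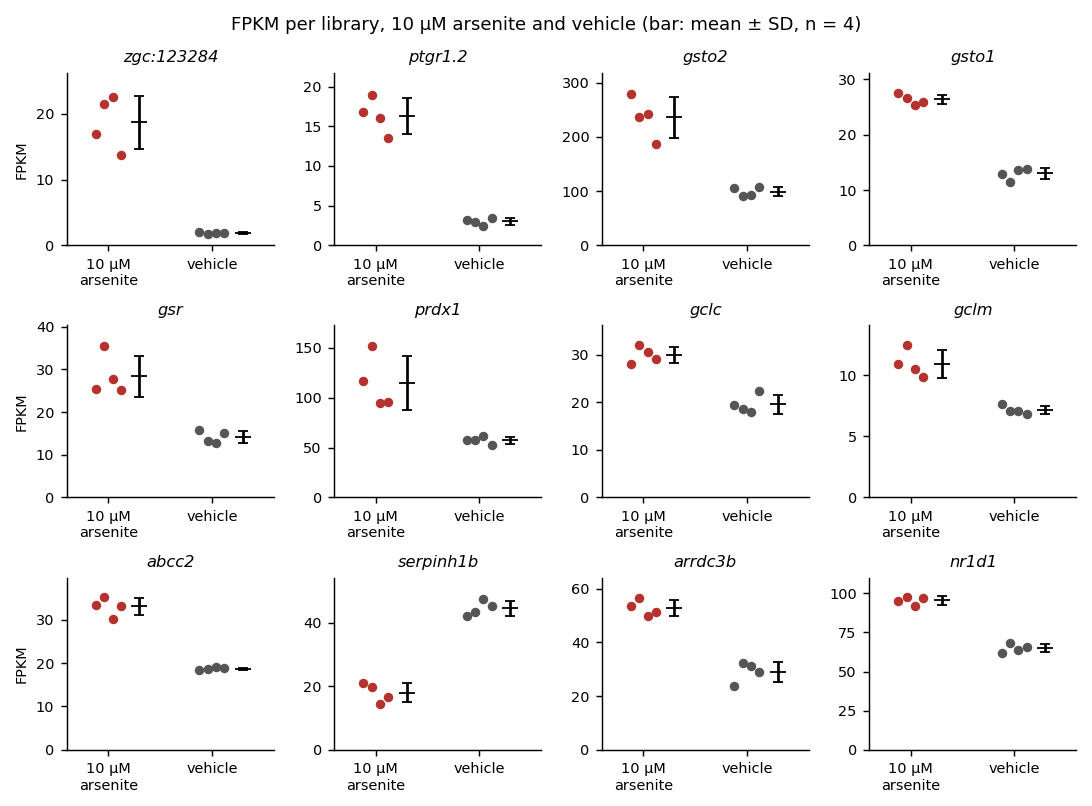
FPKM of 12 genes in each library, with the 4 libraries of 10 µM arsenite (red) left of the 4 vehicle libraries (grey) and bars for mean ± SD (n = 4). The groups do not overlap in any of the 12 panels, as for 163 of the 165 called genes. The 1 gene shown that is lower in arsenite is serpinh1b, at 14.3 to 21.0 FPKM against 42.2 to 47.6 FPKM in vehicle.

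Among the 39 genes of NRF2 signalling, glutathione synthesis and thioredoxin cycling, 7 rose and 1 fell (20.5% called), with a list median of 0.09. Both subunits of glutamate cysteine ligase, which sets the rate of glutathione synthesis, were among them. The catalytic subunit gene gclc had 28.2, 32.2, 30.6 and 29.1 FPKM in the arsenite libraries, against 19.4, 18.6, 17.9 and 22.5 FPKM in the vehicle libraries (0.59, SE 0.069, adjusted p 3.14e-05). The modifier subunit gene gclm had 10.9, 12.5, 10.5 and 9.85 FPKM in arsenite, against 7.62, 7.08, 7.03 and 6.81 FPKM in vehicle (0.55, SE 0.0845, adjusted p 0.000957). For both subunits every arsenite library exceeded every vehicle library, by similar folds. Glutathione reductase, gsr, which returns oxidized glutathione to its reduced form, had 25.3, 35.5, 27.7 and 25.2 FPKM in arsenite, against 15.7, 13.3, 12.8 and 15.2 FPKM in vehicle (0.94, SE 0.118, adjusted p 8.92e-05). The peroxiredoxin gene prdx1 had 117, 152, 94.6 and 96.2 FPKM in arsenite, against 58.0, 58.1, 61.4 and 53 FPKM in vehicle (0.96, SE 0.109, adjusted p 2.51e-05). Arsenite replicate 2 was the highest library for gsr and for prdx1.

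Smaller increases were found for the KEAP1 gene keap1a (0.43, SE 0.0725, adjusted p 0.00279), for the NADPH source me1, malic enzyme (0.35, SE 0.0676, adjusted p 0.00901), which was also the 1 called gene of 41 for sterol and fatty acid synthesis, and for the thioredoxin reductase gene txnrd3 (0.24, SE 0.0471, adjusted p 0.0127). The exception in direction was gpx1b, a glutathione peroxidase, which had 22.3, 23.0, 18.1 and 18.6 FPKM in arsenite, against 28.6, 38.0, 29.1 and 27.2 FPKM in vehicle (-0.56, SE 0.115, adjusted p 0.0182). Without arsenite replicate 3 its adjusted p was 0.0869, and gpx1b lost the call in 3 of 8 leave-one-out fits, as did txnrd3, up to an adjusted p of 0.0594 on omitting arsenite replicate 2. In the fit of the 8 libraries alone 4 of the 8 called genes of this list were called, and keap1a (adjusted p 0.105), me1 (0.167), txnrd3 (0.106) and gpx1b (0.131) were not. Several textbook members were not called. The quinone reductase gene nqo1 had 77.9 ± 4.61 FPKM in arsenite and 80.8 ± 5.05 FPKM in vehicle (-0.05, adjusted p 0.831). Heme oxygenase, hmox1a, had 12.9 ± 2.57 and 13.6 ± 1.98 FPKM in the same order (-0.09, SE 0.175, adjusted p 0.917). Sulfiredoxin, srxn1, was low in both groups, at 1.27 ± 0.359 FPKM in arsenite and 1.22 ± 0.197 FPKM in vehicle (0.02, SE 0.114, adjusted p 0.97). The thioredoxin gene txnb (0.40, adjusted p 0.405) and the glutathione synthetase gene gss (0.33, adjusted p 0.145) were positive without passing the threshold.

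Other genes with known ties to redox control, chosen after their values were seen, also rose. They were pir, which encodes the oxidative stress sensor pirin (23.4 ± 3.72 FPKM in arsenite against 14.0 ± 1.43 in vehicle, log2 fold change 0.70, adjusted p 6.58e-05), and aifm4, of the apoptosis-inducing factor family (35.9 ± 5.20 against 20.1 ± 0.449 FPKM, 0.80, adjusted p 3.07e-06). The glutaredoxin gene glrx rose by 0.31 (adjusted p 0.0116) and the paraoxonase gene pon1 by 0.79 (adjusted p 0.000159). The call of glrx was lost without arsenite replicate 1 (adjusted p 0.0512) and in the fit of the 8 libraries alone (adjusted p 0.125). A listed synonym, frrs1 for a ferric reductase, is the only tie of zgc:163022 to redox control here. The rule named this gene for the size of its increase. It had 32.2, 42.6, 30.9 and 31.5 FPKM at 10 µM arsenite, against 17.9, 15.9, 14.5 and 16.2 FPKM in vehicle (1.03, SE 0.0837, adjusted p 1.31e-07).

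Of the 32 genes for uptake, methylation and export of arsenic, 1 was called (3.12%), and the list median was 0.02. The gene was abcc2, the ABC transporter that carries glutathione conjugates into bile. It had 33.5, 35.3, 30.3 and 33.1 FPKM in the arsenite libraries, against 18.5, 18.7, 19 and 18.8 FPKM in the vehicle libraries (0.79, SE 0.0802, adjusted p 5.37e-06). The vehicle libraries were nearly equal, and every arsenite library lay at least 11 FPKM above them. The arsenite methyltransferase gene as3mt had 13.2, 12.1, 12.1 and 14.5 FPKM in arsenite, against 14.2, 11.9, 12.8 and 12.1 FPKM in vehicle, with overlapping groups (0.02, SE 0.0699, adjusted p 0.948). Of the other exporters, abcg2a was positive but not called (0.42, adjusted p 0.0718), and abcc1, abcc3 and abcc4 lay between 0.06 and 0.21 without a call. The aquaglyceroporin genes through which arsenite enters cells, aqp3a, aqp3b, aqp7, aqp9a, aqp9b, aqp10a and aqp10b, lay between -0.17 and 0.26, none of them called. Outside the list and chosen after its values were seen, the transporter gene abcc12 had 8.39 ± 0.314 FPKM in arsenite and 5.08 ± 0.567 FPKM in vehicle (0.63, SE 0.0855, adjusted p 0.000226).

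The metallothionein gene mt2, a thiol-rich metal buffer, separated the groups without a call. It had 18.4, 22.3, 16.1 and 14.1 FPKM in arsenite, against 7.21, 9.26, 7.87 and 9.88 FPKM in vehicle (0.96, SE 0.799, adjusted p 0.738). Over all genes tested the groups did not overlap for 6.13%, 3.73% with arsenite higher and 2.41% with arsenite lower. Single libraries of other exposures reached 198 and 203 FPKM for mt2, and these enter the shared spread of the fit. In the fit of the 8 libraries alone the adjusted p was 0.0312. Of the 16 metallothionein and zinc genes, 1 was called (6.25%), the transporter gene slc30a10, which in mammals exports manganese (9.73 ± 0.755 FPKM in arsenite and 7.15 ± 0.798 in vehicle, 0.40, adjusted p 0.0335). The call of slc30a10 did not hold in 7 of 8 leave-one-out fits, up to an adjusted p of 0.144 on omitting vehicle replicate 3. Nor did it hold in the fit of the 8 libraries alone (adjusted p 0.13).

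Of the 37 heme and iron genes tested, 3 rose and none fell (8.11% called), with a list median of 0.07. The first enzyme of heme synthesis, alas1, had 118, 127, 124 and 122 FPKM in arsenite, against 93.2, 85.7, 86.6 and 87.3 FPKM in vehicle (0.47, SE 0.067, adjusted p 0.000355). The heme-binding protein gene soul5 had 137, 132, 131 and 120 FPKM in arsenite, against 97.0, 101, 93.4 and 90.7 FPKM in vehicle (0.44, SE 0.0579, adjusted p 0.000168). Neither gene had overlapping groups. The gene hebp2, of the same heme-binding family, stood at 41.5 ± 5.00 and 30.1 ± 2.81 FPKM in the same order (0.45, SE 0.0892, adjusted p 0.0127), and its call was lost in 4 of 8 leave-one-out fits, up to an adjusted p of 0.0646 on omitting vehicle replicate 3, and in the fit of the 8 libraries alone (adjusted p 0.133). Other genes of the heme-binding family, soul2 (-0.16), soul3 (-0.10) and soul4 (0.02), were not called. Ferritin gene fth1a (0.19, adjusted p 0.139) and the iron exporter gene slc40a1 (0.23, adjusted p 0.079) were not called. The mitochondrial porphyrin transporter gene abcb6a, chosen after its values were seen, rose from no list, at 9.78 ± 1.05 FPKM in arsenite and 6.22 ± 0.116 in vehicle (0.57, adjusted p 0.00014).

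Of the 48 cytosolic heat shock protein and chaperonin genes tested, none rose and 2 fell (4.17% called), and the median was -0.04. The inducible HSP70 gene hsp70l had 12.4, 35.2, 6.85 and 12 FPKM in arsenite, against 39.0, 13, 17.2 and 40.1 FPKM in vehicle (-0.77, SE 0.53, adjusted p 0.661), so both groups ranged widely and overlapped. The HSP40 gene dnajb1b had 11.5, 11.5, 8.27 and 11.6 FPKM in arsenite, against 18.2, 14.4, 17.7 and 17.8 FPKM in vehicle (-0.63, SE 0.147, adjusted p 0.0454). The gene ahsa1b, an activator of HSP90, had 17.2 ± 1.18 and 22.0 ± 1.31 FPKM in the same order (-0.34, SE 0.0596, adjusted p 0.00431). The call of dnajb1b was lost in 7 of 8 leave-one-out fits, up to an adjusted p of 0.184 on omitting arsenite replicate 3, while ahsa1b was called in all 8. Neither gene was called in the fit of the 8 libraries alone, with adjusted p-values of 0.0858 for dnajb1b and 0.0985 for ahsa1b. Of the 54 genes of the unfolded protein and amino acid stress response, slc3a2b, the heavy chain of several amino acid transporters, was the 1 called (1.85%), at 122 ± 11.3 against 78.1 ± 13.3 FPKM in vehicle (0.64, SE 0.126, adjusted p 0.0116). The call was absent in 3 leave-one-out fits, up to an adjusted p of 0.0581 on omitting vehicle replicate 4. It was also absent in the fit of the 8 libraries alone (adjusted p 0.0847). Uranyl nitrate at 300 µg/L (0.82, adjusted p 0.00249) and the mixture (0.71, adjusted p 0.00737) were also called higher than vehicle for slc3a2b. The chaperone genes hspa5 (-0.30, adjusted p 0.147) and hsp90b1 (-0.27, adjusted p 0.306) of the endoplasmic reticulum were not called. None of the 49 proteasome subunit genes was called by limma, and their median was -0.06, with 7 at an unadjusted p under 0.05 and 0 called with voom weights.

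The largest called decrease was that of serpinh1b, which encodes the collagen chaperone HSP47. It had 21.0, 19.6, 14.3 and 16.6 FPKM in the arsenite libraries, against 42.2, 43.4, 47.6 and 45.1 FPKM in the vehicle libraries (-1.29, SE 0.12, adjusted p 1.67e-06). Every arsenite library was at or below 21.0 FPKM, and the gene was called in each leave-one-out fit and in the fit of the 8 libraries alone. It was the 1 called gene of 59 for collagen folding, crosslinking and matrix (1.69%), a list with a median of -0.07 and 42 values below 0. None of the 39 collagen genes was called by limma (1 at an unadjusted p under 0.05, 0 called with voom weights), with a median of -0.03. The collagen with the smallest p, col5a3b, stood at 49.5 ± 3.82 FPKM in arsenite and 65.2 ± 9.30 in vehicle (-0.38, SE 0.112, adjusted p 0.142), and the main fibril genes col1a1a (-0.07), col1a2 (-0.06) and col2a1a (0.19) lay near 0. The proteoglycan gene vcanb fell by 0.49 (SE 0.113, adjusted p 0.0433), at 12.5 ± 0.442 FPKM in arsenite and 18 ± 2.15 in vehicle. It lost the call in 7 of 8 leave-one-out fits, up to an adjusted p of 0.151 on omitting vehicle replicate 4.

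Among the other large decreases, the vesicle coat gene copb2 stood at 8.44 ± 2.15 FPKM in arsenite and 15.0 ± 1.95 FPKM in vehicle (-0.78, SE 0.181, adjusted p 0.0433). The glyoxylate enzyme gene agxta stood at 38.5 ± 5.62 and 55.2 ± 8.57 FPKM in the same order (-0.51, adjusted p 0.0433), zgc:193593 at 60.4 ± 7.13 and 88.4 ± 8.92 (-0.55, adjusted p 0.00113), and LOC100536083 at 1.28 ± 0.261 and 3.13 ± 0.834 (-0.84, adjusted p 0.0191). Prolactin 2, prl2, lay at 0.320 to 0.504 FPKM in arsenite and 0.764 to 1.57 FPKM in vehicle (-0.60, adjusted p 0.0215), on 6 to 10 and 13 to 27 reads. It was the 1 called gene of 48 peptide hormones (2.08%). Leave-one-out fits ended the calls of copb2 in 7 of 8 cases (up to 0.141, on omitting arsenite replicate 1), of agxta in 6 (0.179, vehicle replicate 3), of LOC100536083 in 5 (0.0878, vehicle replicate 3) and of prl2 in 5 (0.107, vehicle replicate 3). Of the 10 largest decreases, 1 (serpinh1b) was called in the fit of the 8 libraries alone, and 2 (serpinh1b and zgc:193593) in every leave-one-out fit. Of the 14 largest increases, all 14 were called in the fit of the 8 libraries alone and 13 in every leave-one-out fit, with gsta.1 as the exception. With voom weights all 10 decreases and all 14 increases were called, and the difference between the sets was not tested.

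Growth and energy genes gave few calls, in a comparison where 0.727% of all genes tested were called. So few calls do not set these lists apart. Within the 38 p53 response and DNA damage genes, gadd45bb rose (9.03 ± 1.04 FPKM in arsenite and 5.98 ± 1.3 in vehicle, 0.54, adjusted p 0.036), which is 2.63% of the list. This call was lost with voom weights on the recovered reads and in 6 of 8 leave-one-out fits, up to an adjusted p of 0.141 on omitting arsenite replicate 2. It was also lost in the fit of the 8 libraries alone (adjusted p 0.206). For gadd45bb, 300 µg/L uranyl nitrate (0.55, adjusted p 0.0254) and the mixture (0.59, adjusted p 0.0263) were also called higher than vehicle. None was called by limma or with voom weights among 49 DNA replication genes (median -0.04, 1 at an unadjusted p under 0.05), 48 mitosis genes (median -0.06, 2 at that p) or 59 ribosome biogenesis genes (median -0.01, 1 at that p). Hypoxia genes likewise gave no call among 32 (median -0.02), with 7 at that p. The 73 nuclear-encoded respiratory chain genes gave 0 calls with either, but 26 had an unadjusted p under 0.05, as did 2346 of the 22682 genes tested. Their median was -0.10, with 59 values below 0 and 14 above, and their summed level was 13150 to 13860 FPKM in arsenite and 14190 to 15190 FPKM in vehicle. The ATP synthase gene atp5f1d, with the smallest p of this list, had 345, 304, 319 and 328 FPKM in arsenite, against 348, 373, 402 and 358 FPKM in vehicle (-0.19, SE 0.0485, adjusted p 0.0714).

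**Figure D3:**
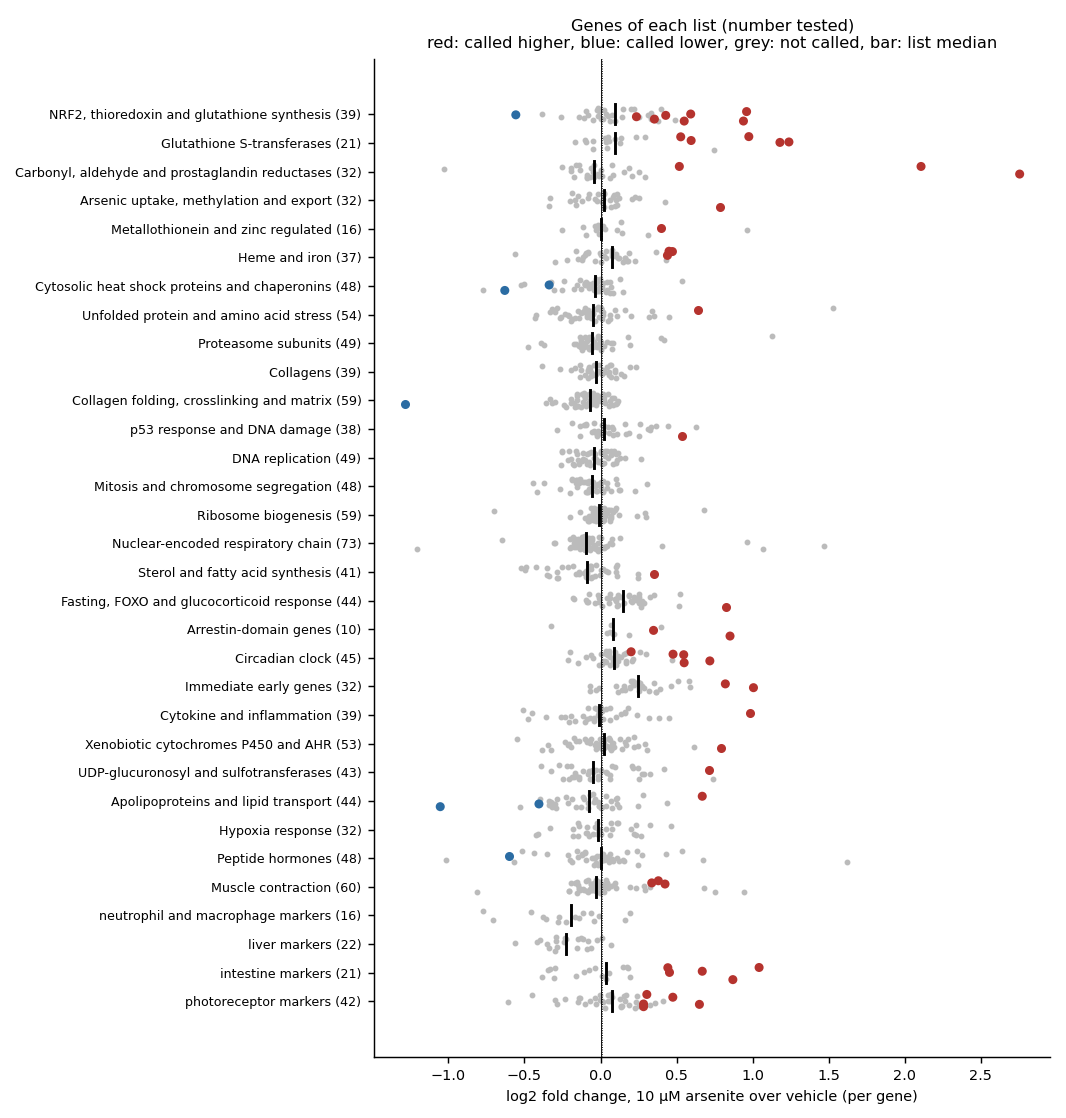
Each point is a gene of the list named at the left, placed by its log2 fold change of 10 µM arsenite over vehicle, with called genes in red (higher) or blue (lower), others in grey, and a bar at the list median. Called genes of the glutathione transferase, reductase and clock lists all lie at the right, those of the NRF2 list do so except gpx1b at -0.56, and the medians of these lists stay between -0.04 and 0.10.

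Some transcriptional repressors of the clock rose. Of 45 circadian clock genes tested, 5 rose and none fell, with a median of 0.09 and 38 values above 0. Over all genes tested, 0.595% were called higher and 0.132% lower. The REV-ERB alpha gene nr1d1, a repressor of the core clock, had 95.4, 98.0, 91.9 and 97.0 FPKM in the arsenite libraries, against 62.1, 68.3, 64.0 and 65.6 FPKM in the vehicle libraries (0.55, SE 0.0387, adjusted p 1.36e-08). Replicates of nr1d1 differed by little and the groups lay far apart. Its paralog nr1d2a had 60.8 ± 1.89 FPKM in arsenite and 43.5 ± 2.80 in vehicle (0.48, SE 0.053, adjusted p 1.83e-05). The repressors nfil3-2 (5.01 ± 0.537 against 3.1 ± 0.162 FPKM, 0.55, adjusted p 0.00213), nfil3-6 (13.3 ± 1.28 against 7.84 ± 2.20 FPKM, 0.72, adjusted p 0.0379) and bhlhe40 (0.20, SE 0.0378, adjusted p 0.00836) were the other members called. The genes nfil3-2 and nfil3-6 are similar neighbours, so their values carry the same uncertainty as the transferases, and nfil3-6 lost its call in 7 of 8 leave-one-out fits, up to an adjusted p of 0.138 on omitting vehicle replicate 1. In the fit of the 8 libraries alone nr1d1, nr1d2a and nfil3-2 were called, and nfil3-6 (adjusted p 0.174) and bhlhe40 were not. The core genes per1a, per1b, per2, per3, clocka, clockb and bmal1a lay between 0.01 and 0.10, and none was called. The labels give a light-dark cycle but no hour of sampling.

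Of 32 immediate early genes, 2 rose and none fell (6.25% called), while 28 values were above 0 and the median was 0.25. The AP-1 gene fosaa had 11.8, 8.2, 10.5 and 8.29 FPKM in arsenite, against 5.05, 4.96, 5.44 and 4.55 FPKM in vehicle (0.82, SE 0.113, adjusted p 0.000271). Its relative fosb had 6.16, 4.18, 5.78 and 3.55 FPKM in arsenite, against 2.07, 1.79, 1.65 and 2.1 FPKM in vehicle (1.01, SE 0.176, adjusted p 0.0039). For both, the arsenite libraries spread more widely than the vehicle libraries but stayed above them. For fosb this separation was a condition of the rule for the largest increases. The genes fosab (0.59, adjusted p 0.22), klf4 (0.58, adjusted p 0.0948), jun (-0.07, adjusted p 0.889) and egr1 (0.25, adjusted p 0.453) were not called. The MYC family gene mych, chosen after its values were seen, had 79.9 ± 4.54 FPKM in arsenite and 46 ± 2.85 in vehicle (0.78, SE 0.0915, adjusted p 3.14e-05).

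Among 10 arrestin-domain genes, which encode adaptors that send membrane proteins to degradation, 2 rose and none fell, with a median of 0.08. The share called higher over all genes tested was 0.595%. The gene arrdc3b had 53.5, 56.7, 49.7 and 51.5 FPKM in arsenite, against 23.6, 32.3, 31.2 and 29.1 FPKM in vehicle (0.85, SE 0.099, adjusted p 3.14e-05), with no overlap. Its paralog arrdc3a stood at 63.6 ± 4.1 and 49.7 ± 3.16 FPKM in the same order (0.35, SE 0.0617, adjusted p 0.00441), but was not called in the fit of the 8 libraries alone (adjusted p 0.0781). The glucocorticoid-responsive transcription factor gene klf9 had 111, 120, 136 and 97.1 FPKM in arsenite, against 60.1, 75.5, 71.7 and 53.8 FPKM in vehicle (0.82, SE 0.156, adjusted p 0.0085). It was the 1 called gene of 44 for fasting, FOXO and glucocorticoid response (2.27%), a list with a median of 0.15 and 34 values above 0. The leucine zipper gene tsc22d3, a classical glucocorticoid target chosen after its values were seen, was not called (0.28, adjusted p 0.0587), nor was fkbp5 of the same kind (0.22, adjusted p 0.779). Of 39 cytokine and inflammation genes, the cytokine signalling inhibitor gene socs1a rose (2.56% called, median -0.01), with 11.7, 12.3, 15.1 and 11.7 FPKM in arsenite, against 6.73, 6.63, 6.44 and 4.20 FPKM in vehicle (0.98, SE 0.175, adjusted p 0.00472). A second inhibitor of this kind, cisha, chosen after its values were seen, rose by 0.70 (SE 0.128, adjusted p 0.00625). In the fit of the 8 libraries alone cisha was not called (adjusted p 0.0801). Nothing was called among 16 neutrophil and macrophage markers by limma or with voom weights (1 at an unadjusted p under 0.05). Their median was -0.20, and their summed level was 723 to 998 FPKM in arsenite and 691 to 1042 FPKM in vehicle.

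The precursor gene of a brain-enriched microRNA, dre-mir-132-2, had 30.6, 44.9, 48.8 and 46 FPKM in arsenite, against 18.7, 20.8, 13.5 and 20.9 FPKM in vehicle (1.16, SE 0.175, adjusted p 0.000797). These values rest on 40 to 69 reads per arsenite library and 17 to 34 per vehicle library of polyadenylated RNA, so they describe a transcript over this locus and not the mature microRNA. The locus was also called higher than vehicle at 300 µg/L uranyl nitrate (0.91, adjusted p 0.0129) and in the mixture (0.87, adjusted p 0.0234). The increase of next largest size after ptgr1.2 belonged to the gene numbered 108186987, for which no symbol was found, and it rests on 7 to 19 reads per arsenite library and 1 to 2 per vehicle library (adjusted p 0.0459), so no fold is printed. It was 1 of 8 called genes without a symbol. Also among the 14 largest increases was si:dkey-251i10.2, at 43.4 ± 3.6 FPKM in arsenite and 22.9 ± 3.7 FPKM in vehicle (0.90, SE 0.152, adjusted p 0.00257). It was called against 1 µM arsenite too (0.77, adjusted p 0.0336).

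Digestive enzymes and a structural protein of the intestinal brush border rose. Of 21 intestine markers tested, 5 rose and none fell (23.8% called), and the median was 0.03. Sucrase-isomaltase, si, had 108, 106, 126 and 113 FPKM in arsenite, against 71.4, 55.4, 47.6 and 74.8 FPKM in vehicle (0.87, SE 0.115, adjusted p 0.00017). Lactase, lct, had 4.43, 4.15, 3.58 and 4.14 FPKM in arsenite, against 1.52, 1.72, 0.833 and 1.91 FPKM in vehicle (1.04, SE 0.168, adjusted p 0.00173). In both disaccharidases the lowest arsenite library exceeded the highest vehicle library, which was a condition of the rule for the largest increases. The peptidase gene anpepb.1 (0.45, adjusted p 0.00472), the microvillus gene vil1 (0.44, adjusted p 0.00257) and the fatty acid binding gene fabp2 (6.70 ± 0.596 against 3.93 ± 1.15 FPKM, 0.67, adjusted p 0.00362) were the others. Uranyl nitrate at 300 µg/L (0.60, adjusted p 0.0129) and the mixture (0.60, adjusted p 0.0157) were also called higher than vehicle for fabp2. All 5 were called in every leave-one-out fit, but vil1 and fabp2 (adjusted p 0.173) were not called in the fit of the 8 libraries alone. In contrast, apoa1a (-0.34, adjusted p 0.462), apoa4a (-0.31, adjusted p 0.58), agr2 (-0.34, adjusted p 0.37) and chia.3 (-0.38, adjusted p 0.402) had negative values without a call. The summed level of the whole marker list was 2350 to 2631 FPKM in arsenite and 2310 to 2916 FPKM in vehicle, with no marker at 0.

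Both genes that fell among the lipoprotein genes were copies of the apolipoprotein A-IV gene. Of 44 apolipoprotein and lipid transport genes, 2 fell and 1, fabp2, rose (6.82% called), with a median of -0.07. The gene apoa4b.3 had 17.1, 31.1, 24.8 and 24.1 FPKM in arsenite, against 63.6, 47.8, 56.0 and 37.7 FPKM in vehicle (-1.05, SE 0.212, adjusted p 0.0141). Its copy apoa4b.2 had 194, 253, 215 and 230 FPKM in arsenite, against 346, 244, 315 and 282 FPKM in vehicle (-0.40, SE 0.0891, adjusted p 0.0311), and here the highest arsenite library passed the lowest vehicle library. The copy apoa4b.1 was not called (-0.30, adjusted p 0.0567). How reads that match several of these copies were counted is not given, so the values of single copies are uncertain to that extent. Leave-one-out fits ended the call of apoa4b.3 in 3 of 8 cases, up to an adjusted p of 0.067 on omitting vehicle replicate 1, and that of apoa4b.2 in 6, with 0.121 without vehicle replicate 3. None of the 3 called genes of this list was called in the fit of the 8 libraries alone. The apolipoprotein E genes apoea (-0.53, adjusted p 0.0762) and apoeb (-0.34, adjusted p 0.0797) had negative values without a call. None of 22 liver markers was called by limma or with voom weights (5 at an unadjusted p under 0.05), with a median of -0.23 and 20 of 22 values below 0. Their summed level was 4861 to 5797 FPKM in arsenite and 5178 to 7118 FPKM in vehicle, and its part in the lipoprotein values was not tested.

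Cytochromes P450 and conjugating transferases gave 1 call each, and over all genes tested 0.595% were called higher. A single call describes that gene and not its list. Of 53 xenobiotic cytochrome P450 and AHR genes, cyp2k18 rose (1.89% called), at 5.15 ± 1.25 FPKM in arsenite and 2.52 ± 0.567 in vehicle (0.79, SE 0.178, adjusted p 0.0365). Of 43 glucuronosyl and sulfotransferase genes, ugt1a7 rose (2.33% called), at 18.6 ± 4.08 FPKM in arsenite and 10.9 ± 1.53 FPKM in vehicle, with no overlap (0.71, SE 0.118, adjusted p 0.00237). The call of cyp2k18 was lost in 6 of 8 leave-one-out fits, up to an adjusted p of 0.146 on omitting vehicle replicate 3. Neither gene was called in the fit of the 8 libraries alone, with adjusted p-values of 0.137 for cyp2k18 and 0.107 for ugt1a7.

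A few photoreceptor and muscle genes rose by small amounts. Of 42 photoreceptor markers, 5 rose and none fell (11.9% called), with a median of 0.07. The cone arrestin gene arr3b had 90.2, 74.4, 83.2 and 82.9 FPKM in arsenite, against 47.7, 53.7, 52.5 and 55.2 FPKM in vehicle (0.65, SE 0.0927, adjusted p 0.000377). The other members called were guca1c, an activator of guanylate cyclase (0.48, adjusted p 0.00379), the recoverin gene rcvrn3 (0.28, adjusted p 0.00122), the rod arrestin gene sagb (0.30, adjusted p 0.0125) and the phosphodiesterase gene pde6b (0.28, adjusted p 0.0441). Also called higher than vehicle were arr3b at 1 µM arsenite (0.50, adjusted p 0.0297) and guca1c at 300 µg/L uranyl nitrate (0.39, adjusted p 0.0209). In the mixture guca1c was called higher too (0.62, adjusted p 0.00049). The opsin genes rho (0.05), opn1sw1 (0.05), opn1sw2 (0.14), opn1mw1 (-0.45), opn1mw2 (-0.28) and opn1lw2 (-0.61) were not called, and the summed level of all photoreceptor markers was 4436 to 5025 FPKM in arsenite and 4487 to 4806 FPKM in vehicle. The calls of arr3b, guca1c and rcvrn3 held in every leave-one-out fit, while those of sagb (adjusted p 0.0519 on omitting vehicle replicate 1) and pde6b did not. In the fit of the 8 libraries alone arr3b and sagb were called, and guca1c (adjusted p 0.0781), rcvrn3 (0.066) and pde6b were not. In muscle, 3 of 60 contraction genes rose (5.00% called, median -0.03), the calcium release channel genes ryr3 (0.42, adjusted p 0.0182) and ryr1b (0.38, adjusted p 0.0157) and the titin gene ttn.1 (0.34, adjusted p 0.0427). Uranyl nitrate at 300 µg/L was also called higher than vehicle for ryr3 (0.47, adjusted p 0.0124), ryr1b (0.32, adjusted p 0.0406) and ttn.1 (0.40, adjusted p 0.0129). At 10 µM arsenite none of these 3 was called in the fit of the 8 libraries alone. The adjusted p-values were 0.173 for ryr3, 0.217 for ryr1b and 0.114 for ttn.1. Leave-one-out fits ended their calls in 5, 3 and 7 of 8 cases in the same order, up to 0.0822 for ryr3 (on omitting vehicle replicate 1), 0.0862 for ryr1b and 0.163 for ttn.1 (both on omitting vehicle replicate 3). The markers of skeletal muscle, neurons, lens, exocrine pancreas, red cells, cartilage and bone, ionocytes and kidney, pigment cells and epidermis gave 0 calls by limma and with voom weights. Of these, the 28 ionocyte and kidney markers had 8 at an unadjusted p under 0.05 and a median of 0.13, and the 34 lens markers had 0 at that p and a median of 0.33, with summed levels of 1090 to 4759 FPKM in arsenite and 1146 to 2496 FPKM in vehicle.

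The comparison of 10 with 1 µM arsenite asked which genes differed between the doses. Vehicle libraries enter it only through the spread shared by all groups. It called 40 genes, 0.176% of those tested, 37 higher (0.163%) and 3 lower (0.0132%) at 10 µM. Without arsenite 1 µM replicate 1 there were 21, and the fit of these 8 libraries alone called 13. Both this comparison and that with vehicle use the 10 µM libraries. The conjugation and glutathione genes were prominent. Means were 236 FPKM at 10 µM and 126 at 1 µM for gsto2 (0.89, SE 0.0863, adjusted p 5.35e-06), 115 and 62.1 FPKM for prdx1 (0.86, adjusted p 0.000213), and 33.1 and 20.5 FPKM for abcc2 (0.67, adjusted p 0.000103). The 10 µM level of gclc also exceeded that at 1 µM (0.57, adjusted p 0.000116). Other redox and conjugation genes called against vehicle were not called between the doses. Among them were gsta.1 (0.79, adjusted p 0.452), keap1a (0.30, adjusted p 0.189), glrx (0.20, adjusted p 0.462) and gpx1b (-0.45, adjusted p 0.223). For gclm the 1 µM mean of 7.13 FPKM equalled the vehicle mean of 7.13 FPKM, against 10.9 FPKM at 10 µM (0.56, SE 0.0845, adjusted p 0.00193). By list, calls between the doses were 6 of 39 NRF2 and glutathione synthesis genes, 4 of 21 transferases, 3 of 32 reductases, 2 of 21 intestine markers and 0 of 45 clock, 0 of 32 immediate early and 0 of 10 arrestin-domain genes.

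Called clock, arrestin-domain and immediate early genes did not pass the threshold between the doses. The mean of nr1d1 was 95.6 FPKM at 10 µM and 87.7 at 1 µM (0.12, SE 0.0387, adjusted p 0.494), that of arrdc3b 52.9 and 53.8 FPKM (-0.02, SE 0.099, adjusted p 0.993), that of fosaa 9.68 and 9.21 FPKM (0.06, SE 0.113, adjusted p 0.969), and that of mych 79.9 and 76.1 FPKM (0.07, SE 0.0915, adjusted p 0.956). For serpinh1b the means were 17.9 FPKM at 10 µM and 22.0 at 1 µM (-0.29, SE 0.12, adjusted p 0.775). A missed threshold does not show equal levels. Between the doses the largest increases outside the redox groups among the genes named by rule were ugdh, which makes UDP-glucuronate (6.14 FPKM at 10 µM and 1.94 at 1 µM, 1.34, SE 0.234, adjusted p 0.0108), and the ribosomal protein gene rps15 (11.8 and 5.67 FPKM, 0.94, SE 0.135, adjusted p 0.00108). Neither was called against vehicle, where ugdh had an adjusted p of 0.193 and rps15 of 0.0562. Their vehicle means, 3.27 FPKM for ugdh and 7.78 for rps15, lay above those at 1 µM. Part of each difference between the doses thus lay below the vehicle level. The 3 lower genes were prl2 (0.441 FPKM at 10 µM and 1.3 at 1 µM, -0.67, adjusted p 0.0213), the developmental transcription factor gene six2b (3.30 and 5.06 FPKM, -0.49, adjusted p 0.0376) and the noncoding gene LOC100536946 (0.710 and 3.45 FPKM, -1.33, adjusted p 0.0402). Omitting a library ended the call of ugdh in 1 of 8 fits (adjusted p 0.0549, without arsenite 10 µM replicate 3), of six2b in 5 (up to 0.199, without arsenite 1 µM replicate 1), of prl2 in 7 (up to 0.0894, without arsenite 10 µM replicate 4) and of LOC100536946 in 7 (up to 0.165, without arsenite 1 µM replicate 4).

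**Figure D4:**
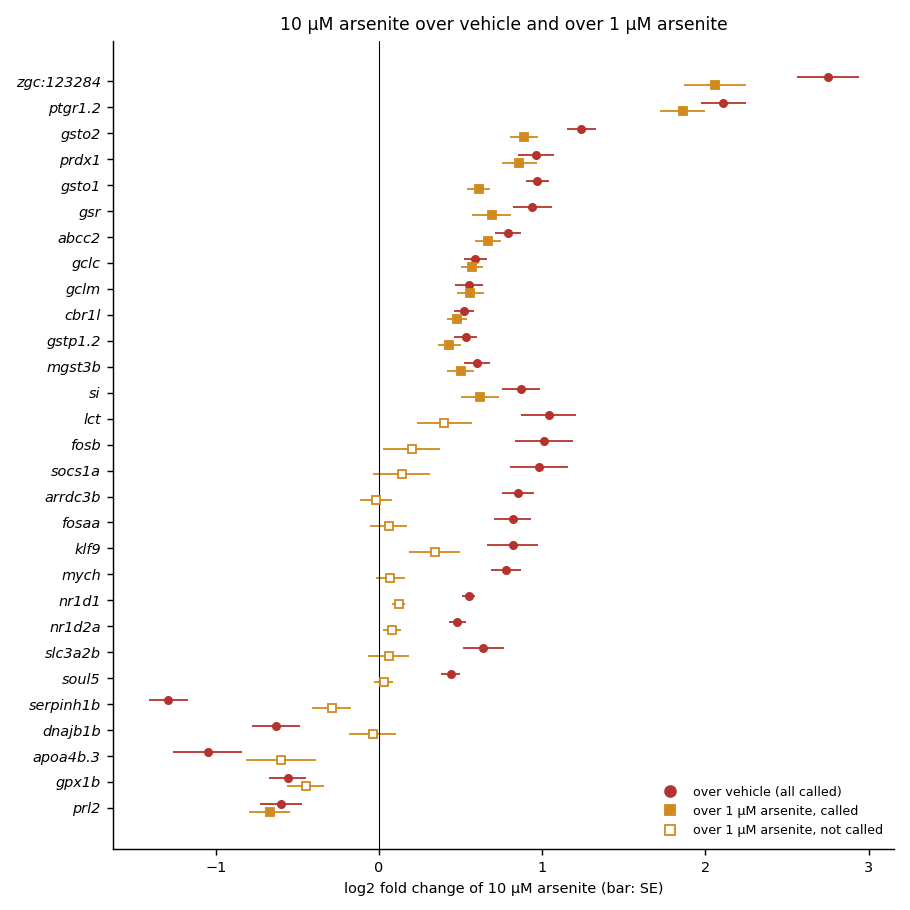
Log2 fold change of 10 µM arsenite over vehicle (red circles) and over 1 µM arsenite (orange squares, filled where called) for 29 genes called against vehicle, with bars for the SE. Redox, conjugation and export genes from zgc:123284 to mgst3b are called in both, whereas arrdc3b, fosaa, mych, nr1d1 and nr1d2a lie between -0.02 and 0.12 over 1 µM. The genes were picked for display: gsta.1, keap1a and glrx, called over vehicle but not over 1 µM, are not shown. The shown gpx1b is not called over 1 µM.

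Against uranyl nitrate at 300 µg/L, the higher dose of the other metal, 10 µM arsenite differed in 233 genes (1.03%), 164 higher (0.723%) and 69 lower (0.304%). Leaving out a library moved this count between 91, without arsenite 10 µM replicate 1, and 294, without arsenite 10 µM replicate 2. The list of 39 NRF2 and glutathione synthesis genes gave 13 calls here (list median 0.28) and the transferases 6 of 21 (0.24). Over vehicle these medians were 0.09 and 0.10. Calls were not limited to redox lists. The 49 DNA replication genes gave 9 (list median 0.37), the 48 peptide hormones 6 and the 53 cytochrome P450 and AHR genes 5. Mitosis genes gave 2 calls of 48, with a list median of 0.31. Over vehicle the median was -0.04 for DNA replication and -0.06 for mitosis genes, with 0 calls in either list. The values of both lists here thus do not describe increases over vehicle. Means were 16.3 FPKM in arsenite and 2.58 in uranyl nitrate for ptgr1.2 (2.27, SE 0.14, adjusted p 4.05e-09), 236 and 92.5 FPKM for gsto2 (1.33, SE 0.0863, adjusted p 5.52e-09), and 28.4 and 13.8 FPKM for gsr (0.98, SE 0.118, adjusted p 4.05e-05). Uranyl nitrate at 300 µg/L was itself called below vehicle for cbr1l (-0.30, adjusted p 0.0179) and ugt1a7 (-0.54, adjusted p 0.0254). For these genes part of the difference between the metals thus lay below the vehicle level. Uranyl nitrate was not called against vehicle for ptgr1.2 (-0.16), gsto2 (-0.09), gsr (-0.04), pir (0.06) or keap1a (0.06). The pituitary hormone gene smtlb (somatolactin beta) had the largest increase, at 13.5, 14.4, 11 and 2.3 FPKM in arsenite, against 0.133, 0.615, 0.271 and 0.353 FPKM in uranyl nitrate (2.86, SE 0.623, adjusted p 0.0285), but its vehicle libraries ranged from 0.254 to 11.4 FPKM and it was not called against vehicle (adjusted p 0.327). The call of smtlb was lost in 7 of 8 leave-one-out fits, up to an adjusted p of 0.107 on omitting arsenite 10 µM replicate 1. Lower in arsenite were apoa4b.3 (24.3 against 70.4 FPKM, -1.52, adjusted p 0.00026), LOC100536083 (1.28 against 3.93 FPKM, -1.08, adjusted p 0.00159) and si:dkey-205h13.2 (29.5 against 63.7 FPKM, -1.12, adjusted p 0.0143). The call of si:dkey-205h13.2 was lost in 2 of 8 leave-one-out fits, up to 0.0594 on omitting arsenite 10 µM replicate 3. The clock gene nr1d1 (95.6 and 91.7 FPKM, 0.06, adjusted p 0.545), serpinh1b (17.9 and 22.4 FPKM, -0.32, adjusted p 0.22) and klf9 (116 and 108 FPKM, 0.10, adjusted p 0.849) were not called between the metals.

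Across all 6 groups, gsto2 was at 187 to 279 FPKM in the 4 libraries of 10 µM arsenite and at most 131 FPKM in the other 20. The gene serpinh1b averaged 44.6 FPKM in vehicle, 22.0 and 17.9 FPKM at 1 and 10 µM arsenite, 41.1 and 22.4 FPKM at 30 and 300 µg/L uranyl nitrate and 16.4 FPKM in the mixture. In the same order nr1d1 averaged 65.0, 87.7, 95.6, 71.7, 91.7 and 91.6 FPKM, and arrdc3b 29.0, 53.8, 52.9, 37.7, 63.8 and 76.7 FPKM. Vehicle thus held the highest mean of serpinh1b and the lowest means of nr1d1 and arrdc3b, next to those of 30 µg/L uranyl nitrate. At 300 µg/L uranyl nitrate klf9 (0.73, adjusted p 0.0226), fosaa (0.58, adjusted p 0.013) and mych (0.67, adjusted p 0.000922) were also called higher than vehicle.

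**Figure D5:**
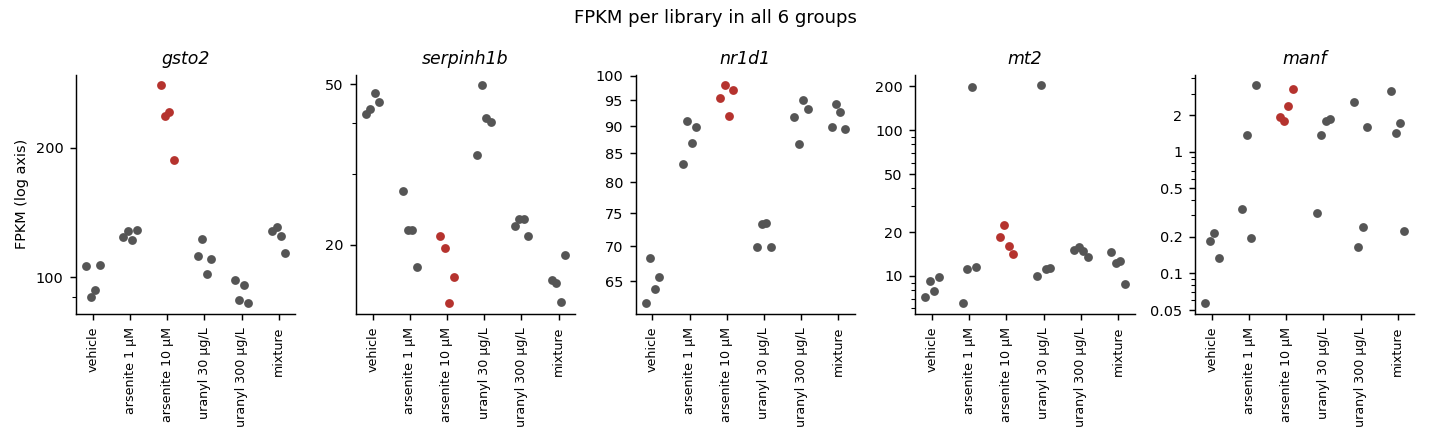
FPKM of 5 genes per library on log axes, with groups in the order vehicle, arsenite at 1 and 10 µM, uranyl nitrate at 30 and 300 µg/L, and mixture, and the 10 µM arsenite libraries in red. The red points stand alone for gsto2, share their range with other exposures for serpinh1b and nr1d1, and for mt2 and manf lie above vehicle while single libraries of other groups scatter widely.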

How the data were processed

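The authors deposited 1 table of FPKM values with 39974 genes, numbered by NCBI Gene, for 24 libraries of polyadenylated RNA. Per the submitters' processing notes, HISAT2 2.1.0, HTSeq 0.6.1, DESeq2 1.10.1 and the build GRCz11 were used, with no roles given; annotation and strand setting are not given in the sources used here. No column was left unused (0). Symbols were matched by gene number to a RefSeq table of GRCz12tu, used for names and gene order only (32044 genes, 80.2%).

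Values were changed to log2(FPKM + 1) for genes with FPKM of at least 0.5 in at least 4 libraries. Limma 3.58.1 in R 4.3.3 fitted 6 group means over 24 libraries without a block (lmFit, contrasts.fit, eBayes with a variance trend, 18 residual degrees of freedom), with two-sided p-values adjusted by Benjamini-Hochberg within each contrast. All adjusted p-values come from this fit unless another is named. Both the fit and the read recovery were also run on simulated data, but no outcome is given here, so their accuracy is not shown. Residual SDs had a median of 0.138 (log2).

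Depth was recovered from the steps of the FPKM values: 100.0% of values above 0 were whole reads to within 0.01 read, with totals of 15456854 to 22987080. The search picks for each gene a step that makes its values whole, so this share does not show that the read numbers are right. Read numbers cover counting error only, since reads without molecular identifiers are not independent molecules. Alternatives were another pseudocount (0.1), other filters and scalings, no variance trend, the compared groups alone, a replicate block, voom weights on recovered reads, a minimum fold change and leaving out each library.

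Genes were named by rule: among called genes that have a symbol and no overlap between groups, the 14 with the largest increases and the 10 with the largest decreases, up to 4 called members of each list (where none was called, the smallest p), the 4 largest of either direction in the other contrasts, and 12 preset genes. Further list members come from the same fit, and the text says which genes outside the rule and lists were picked with their values known. The comparison, the gene lists and the rule were chosen with earlier results of these data known, so a count over a list is a description and not independent evidence, and no set test was run. No sequences are printed, since no sequence table was used here.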

Additional observations from a re-analysis of the deposited data

Results flagged for a closer look

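In 9 of 218 groups of 4 libraries (each named gene in 10 µM arsenite and in vehicle), 1 library lay so far from the other 3 that its gap to the nearest, as a share of the group's range, passed Dixon's 95% critical value for 4 samples. Chance alone flags about 1 in 20 such groups. In the arsenite group these were zgc:163022 in replicate 2 (42.6 FPKM, the others 30.9 to 32.2), dnajb1b in replicate 3 (8.27, the others 11.5 to 11.6) and ugt1a7 in replicate 1 (24.7, the others 15.9 to 17.3). In the vehicle group they were zgc:123284 in replicate 1 (2.08 FPKM, the others 1.78 to 1.83), rps15 in replicate 1 (10.09, the others 6.88 to 7.11), smtlb in replicate 1 (11.4, the others 0.254 to 2.07), dnajb1b in replicate 2 (14.4, the others 17.7 to 18.2), socs1a in replicate 4 (4.20, the others 6.44 to 6.73) and psme3 in replicate 4 (3.38, the others 1.16 to 1.3). Of these genes, zgc:163022, zgc:123284, socs1a and ugt1a7 were called against vehicle in every leave-one-out fit, dnajb1b in 1 of 8, rps15 in 1 of 8, and smtlb and psme3 in none.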

How the results depend on the processing

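Against vehicle, the 165 calls became 58 in the fit of the 2 groups alone and 12 with a log2 fold change of at least 1, and ranged from 102 to 180 when a library was left out. Against 1 µM arsenite the 40 calls became 13 and 4, with 21 to 36 when a library was left out. Against uranyl nitrate at 300 µg/L the 233 calls became 130 and 17, with 91 to 294 when a library was left out. Another pseudocount, other filters and scalings, no variance trend and voom weights kept each count within 1.5 times. None of the named genes called against vehicle changed direction under these alternatives. With replicate number as a block the counts were 160, 37 and 252. Same-numbered arsenite 10 µM and vehicle libraries deviated together at r of 0.0045, 0.0056, -0.0242 and 0.0397, under the threshold of 0.1. Differently numbered ones lay between -0.0811 and 0.0754. These values show no pairing by number, but they cannot decide whether pools shared a clutch or day, which the labels do not state. Of 73 named genes called against vehicle, 5 lost the call under the block, 36 in the fit of the 2 groups alone, and 7 to 20 when a library was left out. With FPKM rescaled to the same total, 88.1% of calls against vehicle were higher, against 81.8%. Pools of 4 a group and the spread shared with other exposures limit what small changes can show.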

Other observations

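Of all genes tested, 1391 (6.13%) separated the groups, and 163 of these were called, so separation without a call was common. The genes of this paragraph were chosen after their values were seen, except psme3, which the rule named from the proteasome list. The stress-secreted factor gene manf had 1.92, 1.77, 2.39 and 3.30 FPKM at 10 µM arsenite, against 0.0569, 0.185, 0.213 and 0.135 FPKM in vehicle, on 75 to 135 and 2 to 9 reads (log2 fold change 1.52, SE 0.406, adjusted p 0.0947 in the limma fit of all groups and 0.00315 in that of the 2 groups). In the other 4 exposures single libraries of manf lay anywhere between 0.166 and 3.50 FPKM. The proteasome activator gene psme3 stood at 4.81 ± 1.14 FPKM in arsenite and 1.75 ± 1.08 in vehicle (1.13, adjusted p 0.227). It averaged 6.30 FPKM at 1 µM arsenite, 5.82 and 4.30 at 30 and 300 µg/L uranyl nitrate, and 5.94 in the mixture, so vehicle was the lowest group. The retinoid isomerase gene rpe65a averaged 45.8 FPKM in arsenite and 27.1 in vehicle (0.83, adjusted p 0.0874, and 0.378 in the fit of the 2 groups). Its other exposed libraries ranged from 23.7 to 55.7 FPKM. Lower without a call were the ribosomal protein gene rpl13a (131 and 415 FPKM, adjusted p 0.40), whose other exposed libraries ranged from 15.8 to 475 FPKM, and zgc:172053 (3.44 and 12.6 FPKM, adjusted p 0.0924). The retinol acyltransferase gene lratb.2 was called (1.19, adjusted p 0.0157) although its groups overlapped, at 14.0 ± 2.83 FPKM in arsenite and 6.04 ± 3.27 FPKM in vehicle (SD, n = 4 each). It lost its call in 4 of 8 leave-one-out fits, up to an adjusted p of 0.0632 on omitting arsenite replicate 4. The fit of the 8 libraries alone did not call it either (adjusted p 0.224).

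In the gene order of GRCz12tu, 153 of the called genes could be placed, and 4 pairs had no other protein-coding gene between them. These were gsto1 with gsto2, nfil3-2 with nfil3-6, klhl31 with gclc, all higher, and dhdh.2 with dhdh.1, in opposite directions. The kelch gene klhl31 rose by 0.30, beside 0.59 for gclc.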
